A study of Mus musculus with 12 samples.

Results

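The platelet adhesion and granule genes Itga2b, Vwf, Selp, Itgb3, Pf4, Ppbp, Gp1bb, Gp5, Gp9 and Plek were read in RNA of long-term haematopoietic stem cells (LT-HSCs) from the bone marrow of C57BL/6 mice, cells that renew themselves and give rise to all blood lineages. They were chosen by symbol, 10 of the 23472 genes in the count table, and all 10 passed the filter on low counts that left 13184 genes. Itga2b, Vwf and Selp are also used by platelet-biased stem cells and are called stem-shared here. The other 7 are called platelet-restricted, although Plek is also made by other blood cells and Itgb3 by many cell types. The table held 6 libraries labelled Jak1 KO, from cre-positive mice, and 6 wt libraries, from cre-negative mice. Both groups had received poly(I:C), an inducer of interferon, in 4 doses given 4 to 6 weeks before harvest to induce gene deletion. The labels name neither the promoter of the cre nor the exons deleted, and effects of cre and of a Jak1 deletion cannot be told apart. By their names the libraries formed a VD set (replicates 1 to 3 of either genotype) and a ZL set (replicates 4 to 6). The labels do not say how many animals gave a library or whether each had its own, and the p-values therefore measure only the spread among these samples, some of which may be technical.

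Platelets are shed by megakaryocytes. They stick to damaged vessels through the GPIb-IX-V complex, which binds von Willebrand factor, and to each other through the integrin made of the Itga2b and Itgb3 products, which binds fibrinogen. Their alpha granules hold von Willebrand factor, P-selectin and the chemokines of the Pf4 and Ppbp genes. A subset of mouse LT-HSCs transcribes some of these genes, Vwf above all, and is biased toward making platelets.

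The proximal promoters of 8 of the 10 genes were taken from the RefSeq promoter table (GRCm38.p6). Those of Itga2b, Pf4, Gp9 and Gp5 are shown, as a stem-shared gene, a granule gene and the 2 receptor subunits that hold a match, because GATA and ETS factors are known regulators of megakaryocyte promoters. Each line below gives the 250 bases before the transcription start that RefSeq places, 5′ to 3′, with capitals for AGATAA (the GATA motif) and AGGAAG (an ETS motif) on either strand. For Itga2b that start lies downstream of the GENCODE start of the gene, so that most of the printed window falls within the GENCODE gene span given later. For Gp9 the printed window lies before the GENCODE start of 87778072 but within the RefSeq gene span, which begins further upstream at 87776131. In these 4 promoters no match of 1 motif overlapped a match of the other.
Itga2b, chr11:102469884-102470133, minus strand: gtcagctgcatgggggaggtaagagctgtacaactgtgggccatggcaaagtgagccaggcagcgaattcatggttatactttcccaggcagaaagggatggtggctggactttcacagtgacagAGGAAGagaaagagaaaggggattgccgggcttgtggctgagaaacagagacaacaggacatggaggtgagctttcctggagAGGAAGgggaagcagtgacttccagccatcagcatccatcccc
Pf4, chr5:90772185-90772434, plus strand: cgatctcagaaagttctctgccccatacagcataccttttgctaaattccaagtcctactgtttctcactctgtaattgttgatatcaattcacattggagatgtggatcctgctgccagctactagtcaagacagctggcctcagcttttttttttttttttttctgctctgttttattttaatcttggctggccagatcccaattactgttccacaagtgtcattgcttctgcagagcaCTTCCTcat
Gp9, chr6:87777820-87778069, plus strand: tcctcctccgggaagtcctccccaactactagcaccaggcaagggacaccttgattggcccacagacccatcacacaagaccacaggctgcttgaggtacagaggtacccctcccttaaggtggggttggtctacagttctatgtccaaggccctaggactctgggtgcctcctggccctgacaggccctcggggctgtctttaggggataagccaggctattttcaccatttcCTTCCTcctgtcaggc
Gp5, chr16:30310782-30311031, minus strand: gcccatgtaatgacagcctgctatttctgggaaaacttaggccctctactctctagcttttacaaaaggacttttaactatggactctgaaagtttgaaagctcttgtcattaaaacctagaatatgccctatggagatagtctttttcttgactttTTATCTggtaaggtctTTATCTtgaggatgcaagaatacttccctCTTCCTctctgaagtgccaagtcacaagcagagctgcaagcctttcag

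An AGGAAG match lay in 5 of the 8 promoters (Itga2b, Selp, Pf4, Gp5 and Gp9), where 29.5% of 32807 promoters of the same length held it. It stood 9 bases before the start used for the printed window in Pf4, 16 in Gp9 and 43 and 125 in Itga2b. AGATAA matched in 1 of the 8, Gp5, at 77 and 93 bases before the start, against 9.99% of all promoters. Other GATA sequences, such as the AGATAG in the Gp5 line, were not searched or marked, so the other promoters are not shown to lack one. The STAT motif TTCNNNGAA matched in Gp5 alone of the 8 (7.02% of all promoters), and the core of the interferon-stimulated response element (GAAA, then 2 bases of any kind, then GAAA) in Itga2b alone (2.97%). A match is a description of letters and not of a bound site.

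Total counts ranged from 8989965 to 28701855 in the libraries labelled Jak1 KO and from 9824802 to 28261886 in wt libraries. Jak1 itself stood at 422 ± 161 normalised CPM (the count relative to the TMM-scaled library size) in the libraries labelled Jak1 KO and at 374 ± 45.3 in wt libraries (SD, n = 6 each). Counts over the whole gene cannot show the loss of a few exons, so Jak1 did not check the labels. The 12 stem cell markers, among them Procr, Hlf, Mecom and Slamf1, were detected, at a summed 2173 to 4720.4 CPM in the libraries labelled Jak1 KO and 2473 to 4918 CPM in wt libraries. Some genes of mature megakaryocytes were scarce. The collagen receptor gene Gp6 had 12 counts over all 12 libraries, Cd226 had 16, and the tubulin gene Tubb1 reached at most 6.14 CPM. Clec1b and Alox12 were also low, with medians over the 12 libraries of 2.13 and 3.90 CPM. Others were not, with medians of 63.5 CPM for F2rl3, 29.4 for Gp1ba, 24.3 for Treml1 and 16.8 for F5. The summed level of the 10 late megakaryocyte markers was 418 to 1037 CPM in the libraries labelled Jak1 KO and 379 to 1006 CPM in wt libraries, most of it from Mmrn1. Endothelial cells also make Vwf and Selp, and of their 12 markers the defining gene Cdh5 had 28 counts in all 12 libraries. The endothelial list as a whole, of which stem cells also express Tie1, Egfl7 and Emcn, summed to 355 to 693 CPM in the libraries labelled Jak1 KO and 351 to 548 CPM in wt libraries. The 12 erythroid markers summed to 86.4 to 177 CPM in the libraries labelled Jak1 KO and 100.4 to 419 CPM in wt libraries, with Hba-a1, Hba-a2 and Hbb-b2 at 0 in all 12. The 10 mast cell and basophil markers summed to 7.14 to 18.03 CPM in the libraries labelled Jak1 KO and 6.17 to 16.1 CPM in wt libraries. The 10 neutrophil markers differed by set, at 754 to 1467 CPM in the libraries labelled Jak1 KO and 564 to 1453 CPM in wt libraries of VD, and at 95.6 to 260.1 CPM in the libraries labelled Jak1 KO and 139.7 to 164 CPM in wt libraries of ZL. Their part in the level of Plek, which other blood cells also make, was not tested. In bulk samples fewer cells that use a gene and less RNA per cell cannot be told apart.

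Some libraries of the ZL set stood apart. In the library labelled Jak1 KO 4, expression relative to its set fell with exon length (Spearman -0.52 across 13064 genes), while it rose with length in the library labelled Jak1 KO 6 (0.45) and in wt 6 (0.38). The same library labelled Jak1 KO 4 had the lowest limma-voom sample weight (0.165, against 0.215 to 3.18 in the other 11). Its summed markers of 3 other lineages were also far above the rest of its group, at 209 CPM for 9 T and NK cell genes (35.1 to 60.0 CPM in the other 5), 992 CPM for 9 monocyte and macrophage genes (258 to 478) and 146 CPM for 8 B cell genes (29.6 to 55.7). The part of these traits in the results below was not tested beyond fits that left libraries out, took out the length trend or used limma-voom sample weights.

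Itga2b was lower in the libraries labelled Jak1 KO, and the other 9 genes had estimates below 0 that did not pass the test over all genes. Summed, the 10 genes ranged from 747 to 989.7 CPM in libraries labelled Jak1 KO and from 1554 to 2063 CPM in wt libraries. Most of the sum came from Itga2b, Plek, Pf4 and Vwf, with wt means of 548, 322, 276 and 267 CPM. Sums of other genes were not compared, so the ranges do not show a fall of each gene. Of all genes tested 51% had an estimate below 0. Itga2b was the 1 member past edgeR's adjusted p of 0.05, against 58 of the 13184 genes tested, 0.44%, or 0.432% in the lower direction. At an unadjusted p under 0.05 there were 6 members, 3 stem-shared and 3 platelet-restricted, all lower, against 2.66% of all genes. These shares describe genes that were picked with earlier results of these data known.

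**Figure D1:**
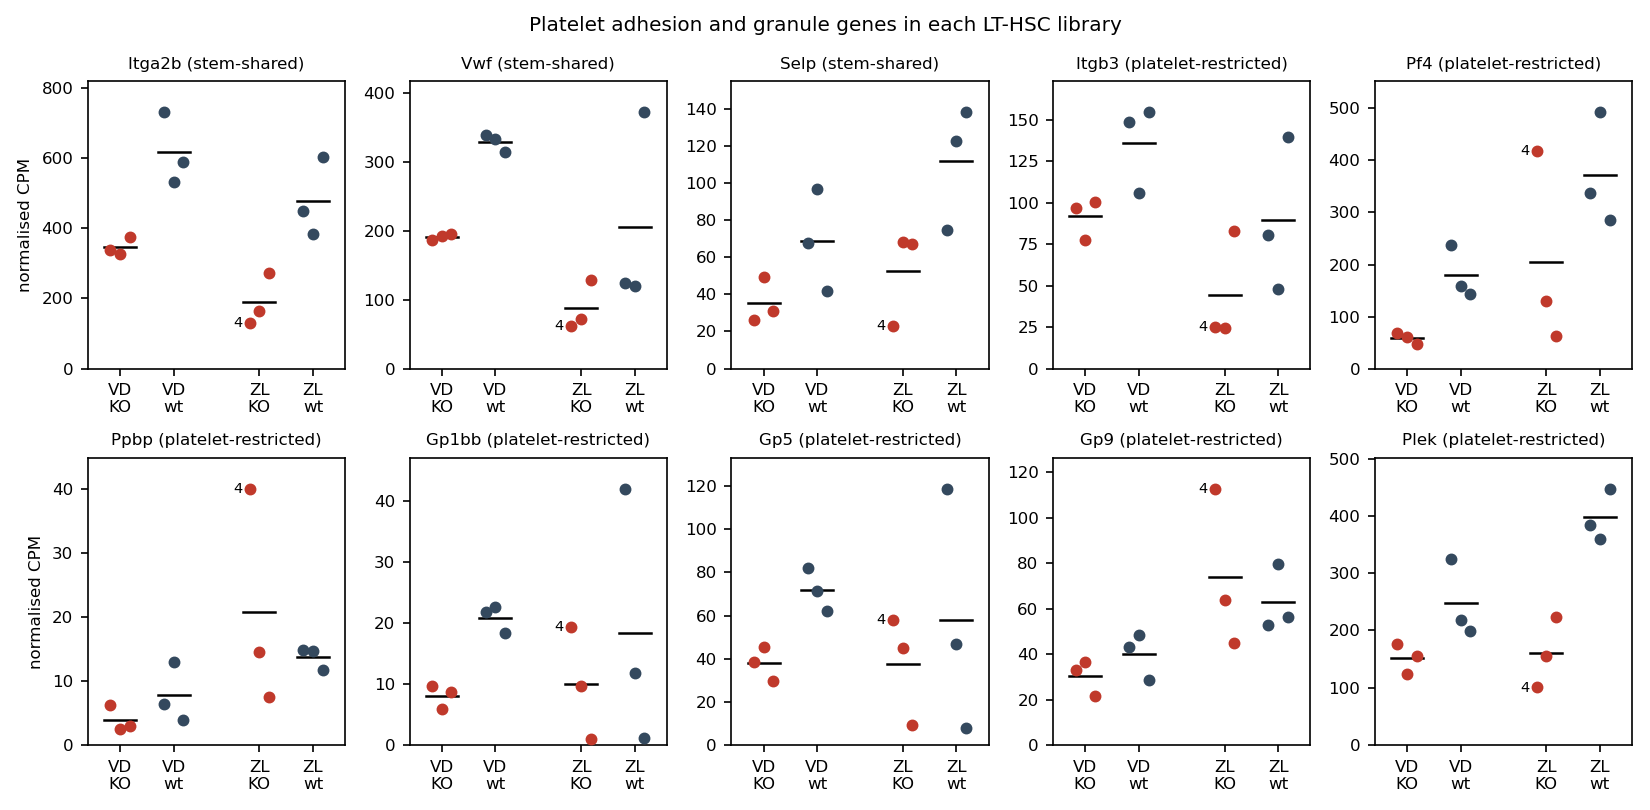
Normalised CPM of each gene in each library (points) with the group mean (bar), for libraries labelled Jak1 KO (red) and wt libraries (dark) within the VD and ZL sets; the point marked 4 is the library labelled Jak1 KO 4. Itga2b and Plek are lower in all 3 libraries labelled Jak1 KO of both sets, while Pf4, Ppbp and Gp9 are high in the library marked 4.

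Among the stem-shared genes, Itga2b encodes the alpha subunit of the fibrinogen receptor, known on stem and progenitor cells as CD41, and lies on chromosome 11 from 102453297 to 102470122 (GRCm38, minus strand). In the VD set it stood at 338, 325 and 376 CPM in the libraries labelled Jak1 KO and at 731, 531 and 589 CPM in wt libraries. In the ZL set it stood at 130.2, 164 and 274 CPM in the libraries labelled Jak1 KO and at 449, 383 and 603 CPM in wt libraries. Every library labelled Jak1 KO was below every wt library of its set, an arrangement that 0.963% of all genes and 2 of the 10 members, Itga2b and Plek, showed. Over both sets Itga2b was 2.12-fold lower, a log2 fold change of -1.08 (SE 0.20, 95% interval -1.51 to -0.66, edgeR adjusted p = 0.0247). The call was lost in 5 of the 12 fits that left out a library, those without wt 1 or wt 4 and those without replicate 1, 2 or 5 of the libraries labelled Jak1 KO (highest adjusted p 0.0970). Within the sets its log2 fold change was -0.83 (SE 0.27) in VD and -1.34 (SE 0.27) in ZL, and the difference between the sets, -0.51 (SE 0.38), had an edgeR adjusted p of 0.9752.

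Vwf encodes von Willebrand factor, the large multimer that tethers platelets to exposed collagen, and lies on chromosome 6 from 125546774 to 125686679. In the VD set it was nearly the same in the libraries of a genotype, with 187, 192 and 195 CPM in the libraries labelled Jak1 KO and 339, 333 and 313 CPM in wt libraries. In the ZL set it was spread out, with 62.2, 72.3 and 128 CPM in the libraries labelled Jak1 KO and 123, 119.5 and 372 CPM in wt libraries. The groups did not overlap in VD and did in ZL, where the library labelled Jak1 KO 6 lay above 2 of the 3 wt libraries and wt 6 held 3.11 times the level of the lowest wt library. Over both sets the log2 fold change of Vwf was -1.002 with an SE of 0.28 and did not pass (edgeR adjusted p = 0.304). It passed with the DESeq2 Wald test (adjusted p = 0.0443) and with limma-voom and sample quality weights (adjusted p = 0.00126), and when an offset took out the length trend of every library (edgeR adjusted p = 0.0329). None of the 12 fits that left out a library called it. Among genotype calls on simulated counts, 16.9% were false with the DESeq2 Wald test, 4.61% with limma-voom and 5.23% with edgeR. Those counts were drawn gene by gene with edgeR's own dispersions and held no length trend or outlying library. The shares therefore need not hold for these libraries.

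Selp encodes P-selectin, the granule membrane protein that activated platelets and endothelium show to leukocytes, and lies on chromosome 1 from 164115264 to 164150026. In the VD set it stood at 26.1, 49.3 and 30.9 CPM in the libraries labelled Jak1 KO and at 67.4, 96.6 and 41.8 CPM in wt libraries. In the ZL set it stood at 22.8, 68.4 and 67.0 CPM in the libraries labelled Jak1 KO and at 74.8, 122 and 138 CPM in wt libraries. The groups overlapped in VD, through the library labelled Jak1 KO 2 and wt 3, and did not in ZL. The log2 fold change of Selp was -1.02 with an SE of 0.29 and did not pass (edgeR adjusted p = 0.371), and within the sets the estimates were close, at -0.95 in VD and -1.08 in ZL. The noncoding gene Gm16548 shares 438 exonic bases with Selp on the other strand, and since the strand setting of the counting is not given, reads of the pair cannot be told apart.

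The platelet-restricted genes were ordered by role, the integrin partner first. Itgb3 encodes the beta subunit that pairs with the Itga2b product and lies on chromosome 11 from 104608000 to 104670476. It stood at 24.2 to 100.3 CPM in the libraries labelled Jak1 KO (median 80.3) and at 48.0 to 154 CPM in wt libraries (median 123). The ranges overlapped over both sets and within ZL, but not within VD. With an SE of 0.32, the log2 fold change of -0.79 did not pass (edgeR adjusted p = 0.844).

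Gp1bb, Gp9 and Gp5 encode 3 of the 4 subunits of the GPIb-IX-V complex, and their levels varied more between libraries of a genotype than between genotypes in the ZL set. Gp5 (chromosome 16, 30307685 to 30310779) stood at 38.4, 45.4 and 29.9 CPM in the VD libraries labelled Jak1 KO and at 82.1, 71.6 and 62.0 CPM in VD wt libraries. In the ZL set Gp5 stood at 58.1, 44.9 and 9.44 CPM in the libraries labelled Jak1 KO and at 119, 47.0 and 7.89 CPM in wt libraries. Replicate 6 was thus the lowest library of both genotypes, and wt 6 lay 15.1-fold below wt 4. Gp1bb (chromosome 16, 18620317 to 18622403) followed the same pattern, with 9.59, 5.98 and 8.62 CPM in the VD libraries labelled Jak1 KO and 21.8, 22.5 and 18.3 CPM in VD wt libraries. Its ZL values were 19.3, 9.71 and 0.996 CPM in the libraries labelled Jak1 KO and 42.0, 11.8 and 1.19 CPM in wt libraries. Both genes had groups that did not overlap in VD and did in ZL. Their log2 fold changes were -1.12 for Gp1bb (SE 0.66, edgeR adjusted p = 0.945) and -0.78 for Gp5 (SE 0.50, edgeR adjusted p = 0.945). In GENCODE annotation 1902 exonic bases of Gp1bb are shared with Sept5, the septin gene on the same strand, so the Gp1bb count is uncertain. Sept5 itself had 13 to 77 counts in the libraries labelled Jak1 KO and 26 to 130 in wt libraries.

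Gp9 (chromosome 6, 87778072 to 87779768), the small subunit that the complex needs to reach the surface, lay at nearly the same mean in the groups, 52.0 ± 32.8 CPM in the libraries labelled Jak1 KO and 51.5 ± 16.8 CPM in wt libraries (SD, n = 6 each). The group labelled Jak1 KO held both the lowest and the highest library, 21.7 and 113 CPM, and the highest was Jak1 KO 4. The log2 fold change was -0.08 (SE 0.25) with a 95% interval of -0.62 to 0.45, which excludes a fall of 1 on the log2 scale such as Itga2b showed. Without Jak1 KO 4 it was -0.28 (edgeR adjusted p = 0.999). The ligand-binding subunit gene Gp1ba, taken from the receptor list, stood at 23.8 ± 7.57 CPM in the libraries labelled Jak1 KO and 30.7 ± 6.39 CPM in wt libraries (log2 fold change -0.38 with an SE of 0.23, edgeR adjusted p = 0.945).

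Of the granule chemokines, Pf4 encodes platelet factor 4, which binds heparin, and lies on chromosome 5 from 90772435 to 90773383. In the VD set it stood at 68.5, 60.6 and 47.4 CPM in the libraries labelled Jak1 KO and at 237, 158 and 144 CPM in wt libraries. In the ZL set it stood at 419, 129.7 and 63.2 CPM in the libraries labelled Jak1 KO and at 338, 492.8 and 286 CPM in wt libraries. Apart from Jak1 KO 4, every library labelled Jak1 KO was below every wt library of its set, which held for 1.46% of all genes when that library was left out. Pf4 had the lowest estimate of the 10, -1.24 on the log2 scale with an SE of 0.37, and did not pass (edgeR adjusted p = 0.422). Without Jak1 KO 4 the log2 fold change was -1.72 (edgeR adjusted p = 0.00270), and with all 12 libraries and the exon length offset it was -1.49 (edgeR adjusted p = 0.00223).

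Ppbp encodes pro-platelet basic protein, another chemokine, and lies 2372 bases upstream of Pf4 on the same strand (chromosome 5, 90768518 to 90770063). It had as few as 21 counts in a library. It stood at 6.24, 2.56 and 2.91 CPM in the VD libraries labelled Jak1 KO and at 6.38, 13.01 and 3.85 CPM in VD wt libraries. In ZL it stood at 39.99, 14.6 and 7.53 CPM in the libraries labelled Jak1 KO and at 14.8, 14.7 and 11.7 CPM in wt libraries. The groups overlapped in both sets, and the highest value again came from Jak1 KO 4. The log2 fold change was -0.15 (SE 0.46, 95% interval -1.12 to 0.83, edgeR adjusted p = 0.967), an interval that holds both 0 and a fall of 1 on the log2 scale. Without Jak1 KO 4 the log2 fold change was -0.61 (edgeR adjusted p = 0.992). Its within-set estimates were -0.96 in VD and 0.58 in ZL, with a difference of 1.55 between the sets (SE 0.82, edgeR adjusted p = 0.9752) that was 0.65 without Jak1 KO 4.

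Plek encodes pleckstrin, the main protein kinase C substrate of platelets, and lies on chromosome 11 from 16971206 to 17052381. In the VD set it stood at 176, 124 and 156 CPM in the libraries labelled Jak1 KO and at 324, 219 and 198 CPM in wt libraries. In the ZL set it stood at 101, 156 and 224 CPM in the libraries labelled Jak1 KO and at 385, 359.6 and 447 CPM in wt libraries. The groups overlapped in neither set. The log2 fold change of Plek was -1.01 with an SE of 0.21 and missed the threshold (edgeR adjusted p = 0.0640), which it passed without Jak1 KO 4 (edgeR adjusted p = 0.0358) and with the DESeq2 Wald test (adjusted p = 0.000641). Cnrip1 shares 199 exonic bases with Plek on the other strand.

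Set side by side, the 3 stem-shared estimates lay closer together than the 7 platelet-restricted ones, and the medians were not tested against each other. The 3 stem-shared log2 fold changes had a median of -1.02 and ran from -1.08 to -1.002, and the 7 platelet-restricted ones had a median of -0.79 and ran from -1.24 to -0.08. The median over all 13184 genes was -0.006. A range of 7 values tends to be wider than one of 3. The SEs ran from 0.20 to 0.29 for the stem-shared genes and up to 0.66 for the platelet-restricted ones. Plek (-1.01), Gp1bb (-1.12) and Pf4 (-1.24) lay within or below the stem-shared range. Itgb3 (-0.79), Gp5 (-0.78), Ppbp (-0.15) and Gp9 (-0.08) lay above it. Between replicates, the class median of log2 CPM had an SD of 0.37 for the stem-shared and 0.58 for the platelet-restricted genes. That SD is of single libraries and does not measure the spread of a difference between the 2 median fold changes. The order of the 2 medians differed between sets. The stem-shared median was -0.83 in VD and -1.22 in ZL, and the platelet-restricted one -0.92 in VD and -0.87 in ZL. Without Jak1 KO 4 the stem-shared median was -0.85 and the platelet-restricted one -0.83. With the exon length offset they were -0.97 for stem-shared and -0.91 for platelet-restricted genes. Summed, the stem-shared genes ranged from 215 to 603 CPM in libraries labelled Jak1 KO and from 625.1 to 1137 CPM in wt libraries. Most of that sum came from Itga2b and Vwf (wt means 548 and 267 CPM), and sums of other genes were not compared. The platelet-restricted genes ranged from 352 to 775 CPM in the libraries labelled Jak1 KO and from 609.6 to 1053 CPM in wt libraries, and overlapped only through Jak1 KO 4, which held the 775.

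**Figure D2:**
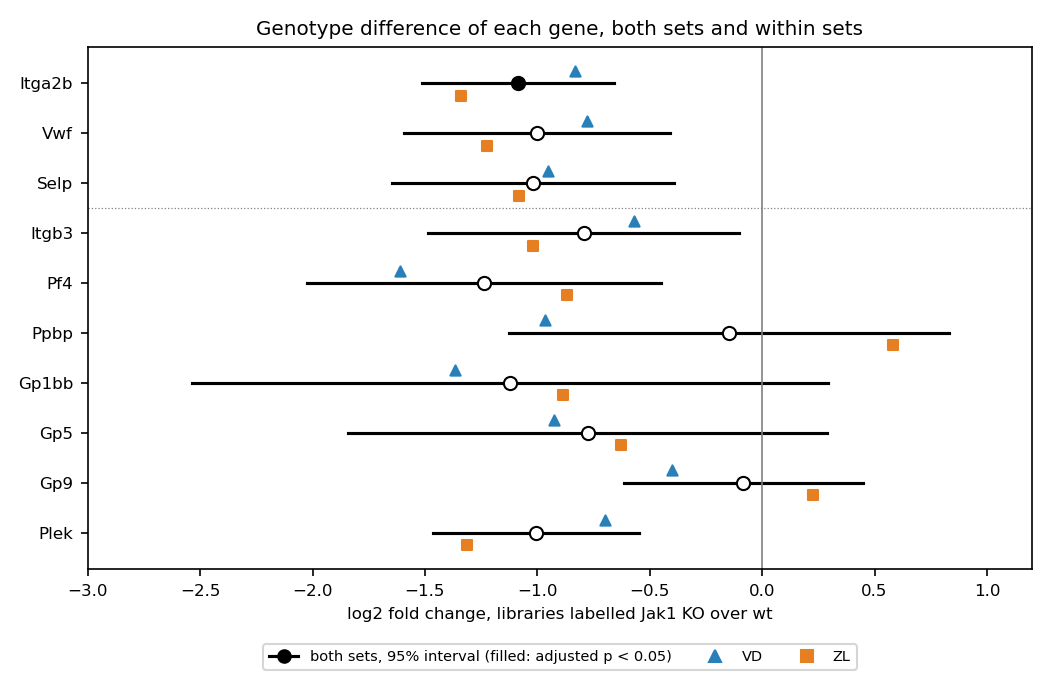
Log2 fold change of each gene, libraries labelled Jak1 KO over wt, over both sets (circles with 95% intervals, filled where the edgeR adjusted p is under 0.05) and within VD (triangles) and ZL (squares); the dotted line divides stem-shared from platelet-restricted genes. The stem-shared estimates lie together near -1, and the platelet-restricted ones spread from -1.24 (Pf4) to -0.08 (Gp9).

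Within the sets no member passed an adjusted p of 0.05 with edgeR, in VD (23 genes, 0.174% of those tested) or in ZL (22 genes, 0.167%). Lower at an unadjusted p under 0.05 were 4 members in VD (Itga2b, Selp, Pf4 and Plek), against 1.71% of all genes, and 5 in ZL (Itga2b, Vwf, Selp, Itgb3 and Plek), against 2.31%. With the DESeq2 Wald test 0 members passed in VD, where 0.576% of all genes did, and 2 in ZL, where 0.41% did. With limma-voom and sample quality weights 3 members passed in VD, against 1.53% of all genes, and 4 in ZL, against 0.69%. In VD all 10 estimates were below 0, from -0.40 (Gp9) to -1.61 (Pf4), where 55.9% of all genes were below 0. In ZL 8 were, with 50.6% of all genes. All VD libraries labelled Jak1 KO were below all VD wt libraries for 7 of the 10 genes, against 13.2% of all genes, and the same held for 3 of the 10 in ZL (Itga2b, Selp and Plek), against 2.34%. The 2 positive estimates in ZL were those of Ppbp and Gp9, and both were below 0 without Jak1 KO 4, at -0.27 and -0.18. No gene of the 13184 passed edgeR's test of the difference between the sets, where 1.38% had an unadjusted p under 0.05. The members all had an unadjusted p above 0.05, and the DESeq2 Wald test called 1 gene. On simulated counts edgeR's test of the difference recovered 0% of genes set to a log2 value of 1 and 16% of those set to 2. Within the sets edgeR recovered 9% in VD and 10% in ZL of those set to 1. Of those set to 2 it recovered 73% in VD and 80% in ZL. Agreement between the sets was not tested.

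Levels between genes were compared per kilobase of transcript, as CPM per kb. Pf4 averaged 223 ± 244 CPM per kb in the libraries labelled Jak1 KO and 469 ± 220 in wt libraries, and Itga2b 77.9 ± 29.05 in the libraries labelled Jak1 KO and 159 ± 35.7 in wt libraries (SD, n = 6 each). The first of these means rests on Jak1 KO 4, without which Pf4 was at 125.6 ± 54.7 CPM per kb and Itga2b at 85.9 ± 23.9 (SD, n = 5). In the VD libraries labelled Jak1 KO both genes were level, Pf4 at 100.1 ± 18.1 and Itga2b at 100.8 ± 7.71 CPM per kb (SD, n = 3). Plek and Gp9 came next in wt libraries, at 78.6 ± 23.6 and 58.5 ± 19.1, and did not differ beyond their spread. Vwf (30.2), Gp5 (29.5), Selp (26.2) and Itgb3 (19.5) formed a run of wt levels in which no neighbours differed beyond their spread, and Ppbp (9.92) and Gp1bb (9.40) closed the order.

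Pooled over the 12 libraries, the 10 genes fell into 2 opposed groups by transcript length, which was not shown for each set. In the libraries labelled Jak1 KO each of the 10 genes varied more in ZL than in VD. For Gp1bb the highest was 19.4 times the lowest in ZL and 1.60 times in VD. In the VD wt libraries the long gene Plek (324, 219 and 198 CPM) and the short gene Pf4 (237, 158 and 144 CPM) fell in the same order. Correlations were not computed within the sets. After the mean of each genotype in each set was subtracted, the 5 genes with transcripts of 3.44 to 8.83 kb (Itga2b, Vwf, Selp, Itgb3 and Plek) were positively correlated in all 10 of their pairs (median Pearson r 0.62 over 12 libraries). The 5 genes with transcripts of 0.588 to 2.20 kb (Pf4, Ppbp, Gp1bb, Gp5 and Gp9) were so in all 10 of theirs (median r 0.61). All 25 pairs of a long and a short gene were negatively correlated (median r -0.58). The closest pair was Gp1bb and Gp5 (r 0.97), followed by the integrin partners Itga2b and Itgb3 (r 0.92), and the most opposed was Vwf and Gp5 (r -0.93). Without Jak1 KO 4 the median over long and short pairs was -0.48, with 21 of 25 below 0, and 7 of the 10 long pairs stayed positive. Selp was in all 3 long pairs and in 3 of the 4 mixed pairs whose sign changed. The points share library, depth and the length trends given above, so these are descriptions of 12 libraries with no test, and the cut at 3 kb was made after the values were seen.

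**Figure D3:**
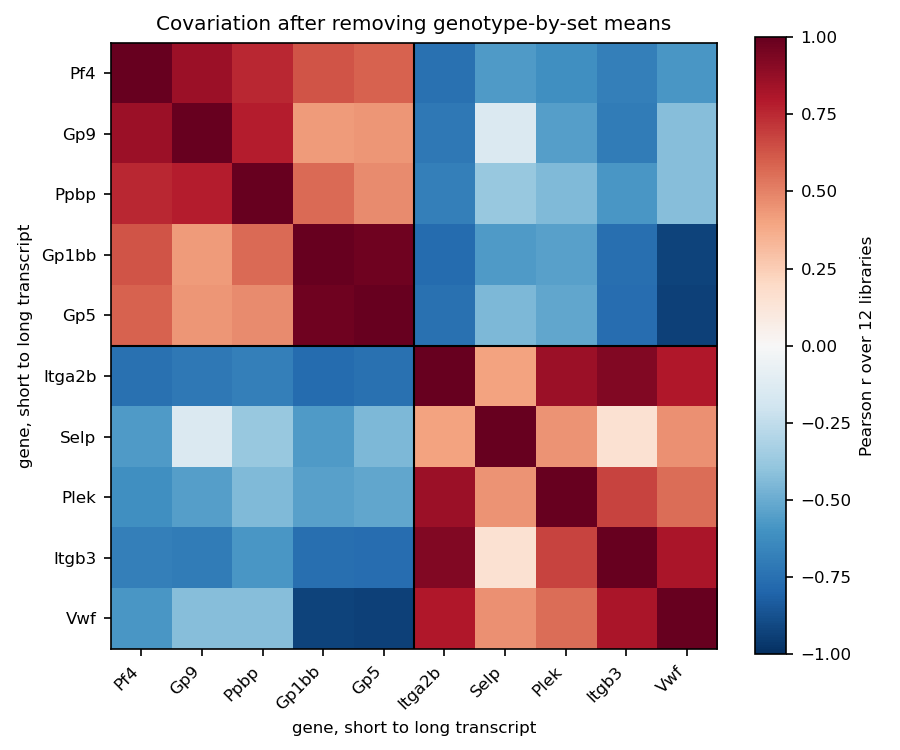
Pearson correlation over 12 libraries of log2 CPM after the mean of each genotype in each set was subtracted, genes in order of transcript length. The 5 short and the 5 long genes form 2 positive blocks, and the 25 pairs between the blocks are negative.

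In some single libraries the short and the long genes were at opposite ends. Jak1 KO 4 held the highest value of its genotype for all 5 short genes and the lowest for 4 of the 5 long ones, Itgb3 being the exception, where Jak1 KO 5 was lower. In wt 6 the long genes Plek, Selp and Vwf were the highest of the wt libraries, and the short genes Gp1bb and Gp5 the lowest. In wt 3, in contrast, both long genes (Plek and Selp) and short ones (Gp9, Pf4 and Ppbp) were the lowest of the wt libraries. The library labelled Jak1 KO 6 was the highest of its genotype for 1 of the 5 long genes, Plek, and the lowest for 2 short ones, Gp1bb and Gp5. All 3 stem-shared genes are long and 5 of the 7 platelet-restricted genes are short, so gene class and transcript length cannot be told apart in the comparison of the classes. The ratio of Itga2b to Pf4 counts, which needs no scaling between libraries, ran from 0.311 in Jak1 KO 4 to 7.94 in Jak1 KO 3 and from 0.777 to 4.09 in wt libraries. The ratio of Itga2b to Plek, both long, ran from 1.05 to 2.63 in the libraries labelled Jak1 KO and from 1.06 to 2.97 in wt libraries.

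**Figure D4:**
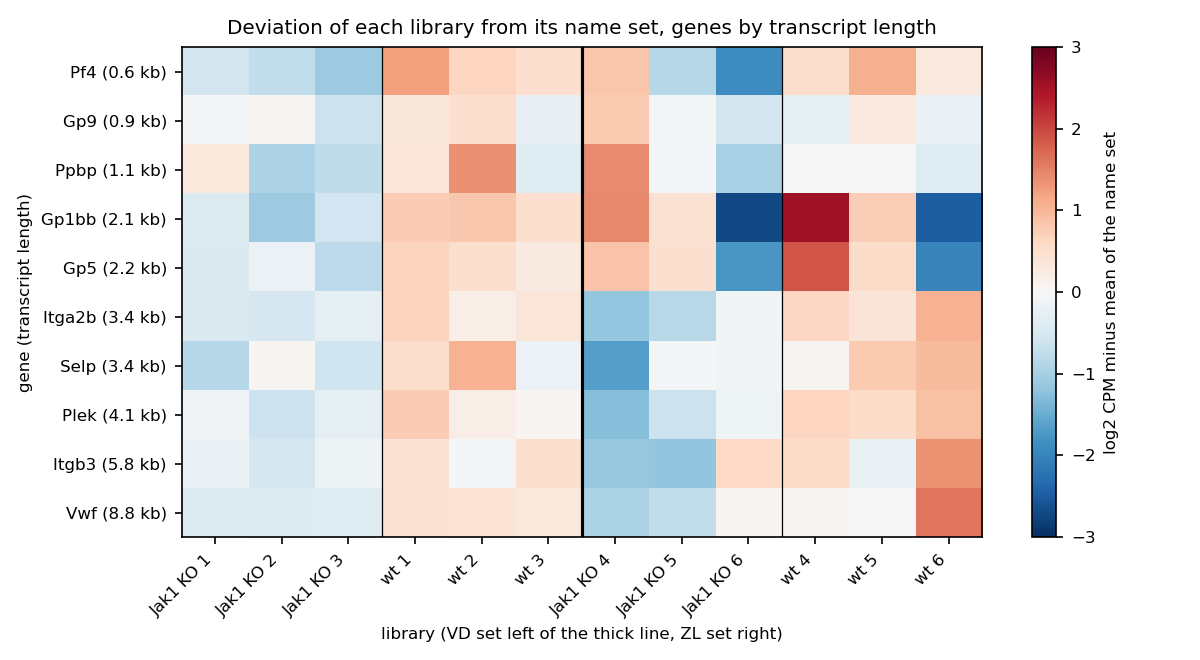
Log2 CPM of each gene in each library minus the mean of its name set, genes in order of transcript length from top to bottom, libraries labelled Jak1 KO left of wt libraries within VD (left of the thick line) and ZL. In VD the 3 libraries labelled Jak1 KO are low for most genes, and in ZL the library labelled Jak1 KO 4 is high for the 5 short genes and low for the 5 long ones.

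Other genes of platelets were read from 5 lists, with 79 of their 87 genes tested, and 3 of these were lower, 0 higher, where 0.432% of all genes were lower. The receptor list had 2, F2rl2 and F2r. F2rl2, which encodes the thrombin receptor cofactor of mouse platelets, stood at 20.4 ± 6.53 CPM in the libraries labelled Jak1 KO and 48.3 ± 16.8 CPM in wt libraries (2.28-fold lower, edgeR adjusted p = 0.0264). F2r, the thrombin receptor gene used by human platelets, stood at 163 ± 79.0 CPM in the libraries labelled Jak1 KO and 332 ± 160.4 CPM in wt libraries (1.97-fold lower, edgeR adjusted p = 0.0473). Both are genes of thrombin receptors, and a further gene of that family in the list, F2rl3, added after its values were seen, stood at 67.7 ± 11.7 CPM in the libraries labelled Jak1 KO and 64.1 ± 6.88 CPM in wt libraries (log2 fold change 0.08, 95% interval -0.22 to 0.38). The granule list had 1, Serpine2, which encodes a thrombin inhibitor of platelet granules, at 13.8 ± 8.13 CPM in the libraries labelled Jak1 KO and 30.2 ± 9.94 CPM in wt libraries (2.298-fold lower, edgeR adjusted p = 0.0140). The n was 6 in each group. Each of the 3 calls was lost in some fits that left out a library, Serpine2 in those without wt 1 or without replicate 1, 2, 3 or 5 of the libraries labelled Jak1 KO (highest adjusted p 0.0593). F2rl2 was lost without replicate 1, 4, 5 or 6 of wt and without replicate 2, 3 or 5 of the libraries labelled Jak1 KO (highest adjusted p 0.110). F2r held only without Jak1 KO 4 or without Jak1 KO 6 and was lost in the other 10 fits (highest adjusted p 0.163). With the exon length offset Serpine2 did not pass (adjusted p = 0.280).

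The lists as wholes lay nearer to 0 than the 10 genes. Of 17 tested receptor genes 2 were lower and 13 were below 0, with a median log2 fold change of -0.13. P2ry1, an ADP receptor gene, was at -0.86 (edgeR adjusted p = 0.186), and Itga6, the alpha subunit of a laminin receptor, at -0.37 (edgeR adjusted p = 0.945). Of 17 granule genes 1 was lower and 13 below 0 (median -0.17), with Rab27b, a GTPase of granule release, at -0.72 (adjusted p = 0.0602) and Clu, clusterin, at -0.89 (adjusted p = 0.109) next by edgeR. The 20 genes of integrin activation (median -0.22) and the 13 of the cytoskeleton and enzymes (median -0.25) had 0 past edgeR's threshold, where 2 and 1 had an unadjusted p under 0.05 in either direction, as 5.06% of all genes did. Fermt3, which activates the integrin, stood at 576 ± 90.1 CPM in the libraries labelled Jak1 KO and 748 ± 137 CPM in wt libraries (log2 fold change -0.37, edgeR adjusted p = 0.516), and passed with the DESeq2 Wald test (adjusted p = 0.0402). Fyb, an adaptor of the same step, was at -0.54 (edgeR adjusted p = 0.308). Of the enzymes, the phosphodiesterase gene Pde5a was at -0.44 (edgeR adjusted p = 0.877) and the thromboxane synthase gene Tbxas1 at 0.22 (edgeR adjusted p = 0.945). Of the 12 transcription factor genes 0 passed with edgeR and 4 had an unadjusted p under 0.05 (median -0.32). Gata1, which drives megakaryocyte and erythroid genes, stood at 43.6 ± 16.8 CPM in the libraries labelled Jak1 KO and 77.7 ± 18.9 CPM in wt libraries (log2 fold change -0.86, edgeR adjusted p = 0.0539, and 0.00819 without Jak1 KO 4). Mef2c was at -0.44 (edgeR adjusted p = 0.510). Mmrn1, named after its values were seen, encodes a granule protein that binds factor V and stood at 444 ± 233 CPM in the libraries labelled Jak1 KO and 479 ± 240 CPM in wt libraries (log2 fold change -0.007, 95% interval -0.57 to 0.56).

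**Figure D5:**
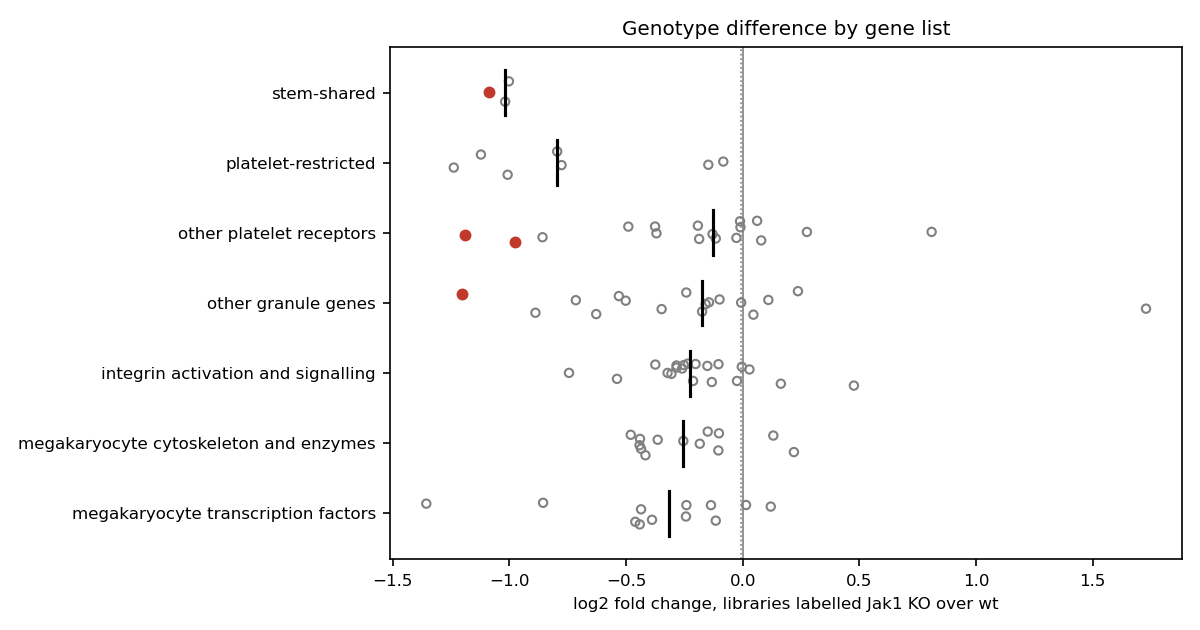
Log2 fold change, libraries labelled Jak1 KO over wt, of each tested gene (circles, filled red where the edgeR adjusted p is under 0.05) by list, with the list median (bar); the dotted line is the median of all genes tested. The medians of the 5 other lists lie between -0.32 and -0.13, and those of the stem-shared and platelet-restricted genes at -1.02 and -0.79.

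The genes outside the lists whose log2 CPM followed Itga2b most closely over the 12 libraries, after the set means were subtracted, were Oas3 (r 0.97), Gbp7 (r 0.97) and Slc14a1 (r 0.97). For Vwf they were Parp14 (r 0.98), Nlrc5 (r 0.97) and Insrr (r 0.97), and for Pf4 Tuba8 (r 0.97), Xaf1 (r 0.95) and Aldh1a1 (r 0.95). These correlations include the difference between genotypes and the length trends of the libraries, and no test was made of them.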

How the data were processed

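The authors deposited raw read counts per gene for 12 poly-A libraries, whole numbers not normalised. Per the submitters' processing notes they used STAR 2.3.0e, featureCounts and Subread with mm10. The sources used here give no version of the last 2, no annotation and no strand setting. Columns were matched to samples by description, groups came from titles and name sets from descriptions.

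The analysis ran edgeR 4.0.16 in R 4.3.3: filterByExpr on genotype, TMM scaling, a model with name set and genotype, the quasi-likelihood F test, and Benjamini-Hochberg adjustment over the 13184 genes tested, with a threshold of 0.05. Within-set effects and their difference came from 1 model with 4 set-by-genotype means. Fold changes are libraries labelled Jak1 KO over wt; SE was obtained from the log2 fold change and its F value. Log2 CPM used a prior count of 2. Exon and transcript lengths came from GENCODE M21 (GRCm38, matching mm10; 23085 of 23472 symbols matched, 1207 as older symbols), and the transcript length is that of the longest CCDS transcript. The length offset was a lowess trend with a span of 0.3.

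The members, lists and alternatives were chosen with earlier results of these data known. Named from the other lists were genes past the threshold, the 2 with the smallest p among the rest, and F2r and Gata1; for Itga2b, Vwf and Pf4 also the 3 annotated genes outside the lists with the highest r. The alternatives were DESeq2 1.42.0 size factors and Wald test, upper quartile factors, other filters, limma-voom (limma 3.58.1), robust dispersion, Rn45s and Lars2 left out, the length offset, no set term, a replicate block, fits of VD or ZL alone, each library left out in turn, 3 ZL libraries (Jak1 KO 4 and 6, wt 6) removed at once, and other thresholds. Libraries of a group within a set differed beyond sampling noise (lowest chi-square per degree of freedom 13.8). The code was checked on simulated counts, drawn gene by gene with edgeR's own dispersions. A result on 1 other gene is not reported here.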

Additional observations from a re-analysis of the deposited data

Results flagged for a closer look

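Of 64 groups of 6 libraries, 11 had a highest or lowest library far from the others by Dixon's criterion at 95%. That criterion flags about 1 group in 20 when the values are independent and from 1 normal distribution. Here each group pooled the VD and ZL sets, the values were CPM and not logs, and several flags shared a library. The rate of 1 in 20 therefore does not apply as such, and the count of 11 was not tested. In the library labelled Jak1 KO 4, Pf4 stood at 419 CPM and Ppbp at 39.99 CPM, each far above the other 5 libraries of its genotype, and so did Serpine2 at 28.97 CPM. The same library held the outlying summed levels of B cell markers (145.8 CPM), T and NK cell markers (209 CPM) and monocyte and macrophage markers (992 CPM). The summed late megakaryocyte markers were outlying in the library labelled Jak1 KO 6, at 1037 CPM, and stood at 1006 CPM in wt 6. Among wt libraries, P2ry1 was outlying and low in wt 6, at 17.9 CPM, where the summed LT-HSC markers were outlying and high, at 4918 CPM. These LT-HSC markers summed to 4720 CPM in the library labelled Jak1 KO 6. The summed erythroid markers were outlying in wt 2, at 419 CPM, and the summed neutrophil markers in wt 3, at 1453 CPM. The neutrophil markers summed to 1467 CPM in the library labelled Jak1 KO 3. The part of these libraries in the results was not tested beyond the fits that left libraries out, took out the length trend or used limma-voom sample weights.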

How the results depend on the processing

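Of the 10 genes, 8 kept an estimate below 0 in all 29 alternatives. Ppbp and Gp9 did so in 24 each, and neither passed the threshold in any. At an adjusted p under 0.05 Itga2b passed in 22, Plek in 8, Pf4 in 7, Vwf in 6, Selp in 2, and Gp1bb and Gp5 in 1 each, the VD libraries alone. The alternatives that changed only the threshold repeat the main fit. Plek (edgeR adjusted p = 0.0640) also passed the threshold of 0.1, which is not among its 8. Itgb3 passed in 0. Where a value below changed, the cause was not tested, beyond the smaller number of libraries in fits that leave some out.

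For genotype over both sets 58 genes, 1 member and 3 genes of the other platelet lists passed. The DESeq2 Wald test gave 126 genes, 3 members and 7 list genes, and limma-voom with sample quality weights 220, 5 and 16. The VD libraries alone gave 149, 5 and 6, and the ZL libraries alone 0, 0 and 0. Without the name set term the counts were 14, 0 and 0, and without Jak1 KO 4, Jak1 KO 6 and wt 6 they were 96, 4 and 6. The length offset called 4 members, and together with leaving out Jak1 KO 4, a combination added after seeing the data, 90 genes, 3 members and 5 list genes. No filter on low counts called 2 members, a threshold of 0.1 called 2 members and 5 list genes, leaving out Rn45s and Lars2 called 5 list genes, and DESeq2 size factors called 1.

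Within VD 23 genes and 0 members passed. The Wald test called 76 genes, upper quartile factors 15, limma-voom 202 with 3 members, the fit without the 3 libraries 70 with 3 members, and the added combination 50 with 1 member. Within ZL 22 genes and 0 members passed. The Wald test called 54 genes with 2 members, limma-voom 91 with 4 members, the added combination 2 members, and no filter, the length offset and the fit without the 3 libraries 1 member each. The Wald test called 1 gene in the difference between the sets.

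Leaving out each library in turn gave 39 to 77 genes for genotype, 0 to 3 members and 0 to 5 list genes, 2 to 42 genes within VD, and 6 to 25 genes and 0 to 2 members within ZL. Over these fits the median log2 fold change of the stem-shared genes ran from -1.14 to -0.85 and that of the platelet-restricted genes from -0.93 to -0.52. Signs turned in some of them: Ppbp ran from -0.61 to 0.17 over both sets and from -0.27 to 0.98 within ZL, and Gp9 from -0.28 to 0.036 and from -0.18 to 0.48. Within ZL Gp1bb ran from -1.73 to 0.60 and Gp5 from -1.15 to 0.45. The difference between the sets ran from -0.40 to 1.97 for Gp1bb, from -0.22 to 1.37 for Gp5, from -0.34 to 1.17 for Pf4, from -1.29 to 0.031 for Itgb3, from -0.46 to 0.22 for Selp and from -0.83 to 0.31 for Vwf.

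Other reversals were of values that had not passed. Without the set term Ppbp was at 0.20 and Gp9 at 0.015, and in the ZL libraries alone at 0.58 and 0.22. Within ZL Gp9 was at -0.048 with limma-voom, -0.16 with the length offset, -0.013 without the 3 libraries and -0.16 with the added combination, in which Ppbp was at -0.32. The difference between the sets for Selp was 0.38 with limma-voom, 0.43 without the 3 libraries and 0.22 with the added combination. For Gp5 it was -0.071 with the length offset and -0.27 with the added combination. Without the 3 libraries it was 0.037 for Vwf, -0.069 for Pf4 and -0.10 for Gp1bb, and with the added combination -0.41 for Pf4 and -0.54 for Gp1bb.

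Replicate numbers are shared by the genotypes, but same-numbered libraries did not all deviate together (r from 0.04 to 0.67 over the 6 pairs), so the numbers were not taken as pairs. With the replicate block 72 genes passed, 52 of them among the 58, with 5 members and 7 list genes. Depth limits Ppbp and Gp1bb most, whose lowest counts in a library were 21 and 25.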
